A study of Bactrocera dorsalis with 16 samples.

Results

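Juvenile hormone epoxide hydrolases 1-like (MSTRG.9415), 2 (MSTRG.9412) and 2-like (MSTRG.9416) and the transcription factor Krueppel homolog 1 (MSTRG.1353) are described here in the oriental fruit fly, Bactrocera dorsalis, in the ovary and the fat body of adult females. These 4 genes were taken by their identifiers out of the 13759 in the deposited table, 3 as enzymes that degrade juvenile hormone and 1 as a gene that the hormone induces. Levels are FPKM, mapped fragments scaled to transcript length and library depth, in each of 16 libraries. The libraries form 8 groups of 2: ovary and fat body, each at 1, 5, 9 and 13 days after eclosion, the emergence of the adult. All groups were females of a laboratory colony kept at 28 °C on yeast extract and sugar, with no treatment named. The design text calls the 2 libraries of a group biological replicates, and how many animals were pooled in each is not stated in the sources used here.

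Juvenile hormone is a sesquiterpenoid made by the corpora allata, glands beside the insect brain, and in adult female flies it takes part in egg production, in which the fat body makes yolk proteins and the ovary takes them up. The hormone carries an epoxide and a methyl ester, and it is broken down by epoxide hydrolases, membrane enzymes that open the epoxide ring, and by esterases that cut the ester. In target cells it binds the receptor Methoprene-tolerant, which with its partner Taiman switches on Krueppel homolog 1, a zinc finger transcription factor long used as a readout of hormone action.

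Between 7425 and 9054 genes reached 1 FPKM in a library, sums of FPKM ran from 290383 to 405928, and relative depth, estimated from the spacing of low values, was 0.859 to 1.106 times the depth of the first ovary library of day 1. That estimate was searched only in a limited range around equal depth, so a larger difference would not have been found. Read totals are not stated, so a level listed at 0 sets no limit. The germline helicase vasa (MSTRG.707) lay between 337 and 571 FPKM in the ovary libraries and between 9.03 and 23.1 FPKM in the fat body libraries, so germline transcripts were detected in every fat body library. Whether they came from ovary carried along in dissection was not tested. Summed over 23 genes, muscle markers reached 459 to 6062 FPKM in ovary libraries and 6201 to 17046 FPKM in fat body libraries. Across genes, Pearson's r between both libraries of a group was 0.919 to 0.966, and no 2 libraries were identical. In these bulk libraries fewer cells of a type and less RNA per cell cannot be told apart.

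Differences are log2 fold changes of FPKM plus 1 with their standard error (SE), from limma, fitted to 10213 genes whose mean reached 1 FPKM in 1 or more groups. All 4 members were among them. A gene counts as changed at an adjusted p (Benjamini-Hochberg over all genes tested) under 0.05.

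Epoxide hydrolase 1-like (MSTRG.9415) was the most abundant of the 4 transcripts in the ovary, and it was higher there than in fat body at every age. In fat body its mean over all ages, 10.4 FPKM, was below those of MSTRG.9416 at 28.0 FPKM and Krueppel homolog 1 at 12.2 FPKM. In the ovary it lay at 79.8 and 68.0 FPKM at day 1, 56.9 and 58.6 FPKM at day 5, 500.0 and 515 FPKM at day 9, and 659.6 and 631 FPKM at day 13. In the fat body it lay at 6.35 and 5.00 FPKM at day 1, 4.60 and 8.70 FPKM at day 5, 25.2 and 22.6 FPKM at day 9, and 4.56 and 5.93 FPKM at day 13. The lowest ovary library, at day 5, was above the highest fat body library, at day 9. The plot of levels by library shows a step between day 5 and day 9 in both tissues, held at day 13 in the ovary and not in the fat body. In order of group means, ovary days 13, 9, 1 and 5 came first and did not overlap with one another, then fat body day 9, while fat body days 5, 1 and 13 overlapped.

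In limma, MSTRG.9415 rose in the ovary at day 9 against day 5 by 3.11 ± 0.23 on the log2 scale (8.66-fold; adjusted p 4.92e-06). The earlier and the later ovarian step did not pass: -0.35 ± 0.23 at day 5 against day 1 (adjusted p 0.307) and 0.35 ± 0.23 at day 13 against day 9 (adjusted p 0.47). In the fat body it rose at day 9 against day 5 by 1.75 ± 0.23 (limma adjusted p 0.00079) and fell at day 13 against day 9 (-2.003 ± 0.23; adjusted p 0.0012). The tissues differed at every age, by 3.49 ± 0.23 at day 1, 2.99 ± 0.23 at day 5, 4.35 ± 0.23 at day 9 and 6.70 ± 0.23 at day 13, with limma adjusted p between 1.33e-06 and 3.69e-09. The ovarian step exceeded that of the fat body by 1.36 ± 0.32 at day 9 against day 5 (adjusted p 0.0106) and by 2.35 ± 0.32 at day 13 against day 9 (adjusted p 0.00552).

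In fat body the sums of germline and eggshell markers were highest at day 9, as this gene was, but not every gene of those lists followed. As a percentage of the ovary mean of the same day, the fat body mean was 7.68% at day 1, 11.5% at day 5, 4.71% at day 9 and 0.812% at day 13, where vasa stood at 3.54%, 2.78%, 4.47% and 2.08%. Other germline genes gave other shares, at day 1 2.26% for nanos (MSTRG.1614) and 14.3% for oskar (MSTRG.1212). At day 9 the share was 3.43% for nanos, 2.24% for oskar and 2.29% for bicaudal C. At day 13 it was 0.542%, 0.558% and 0.194% in the same order. These shares at days 9 and 13 lie below the vasa share of the same day. At day 1 those of oskar and bicaudal C (8.71%) lie above it and that of nanos below. A subtraction by shares below that of vasa would remove less of MSTRG.9415, and by shares above it more, and neither was run. The germline list of 9 genes, none of them at 0, summed to 27.0 to 30.4 FPKM in fat body at day 1, 30.9 to 42.9 FPKM at day 5, 52.9 to 61.9 FPKM at day 9 and 29.7 to 35.6 FPKM at day 13. The eggshell list of 7 genes, of which 1 was at 0 in each library, summed to 9.80 to 15.7, 10.7 to 29.9, 58.3 to 200.03 and 12.6 to 15.1 FPKM at those 4 ages. At day 9 chorion protein S16 (MSTRG.3904) stood at 134 and 1.74 FPKM. Gene by gene, 3 of 8 tested germline and 2 of 6 tested eggshell genes rose at day 9 against day 5, where 5.53% of all genes rose. At day 13 against day 9, 5 and 3 of them fell, where 5.42% of all genes fell. Ovo-like (MSTRG.775) was highest at day 13, at 9.77 and 7.10 FPKM. Bicaudal C (MSTRG.10767), a germline RNA-binding protein, changed in fat body by 1.65 ± 0.37 at day 9 against day 5 and by -2.07 ± 0.37 at day 13 against day 9, and both passed in limma (adjusted p 0.0165 and 0.0093). When an ovarian share scaled by vasa was subtracted from each fat body library, an alternative chosen after seeing the data, MSTRG.9415 kept 3.37 and 2.74 FPKM at day 1, 3.38 and 6.72 FPKM at day 5, 2.79 and 0 FPKM at day 9, and 0 in both libraries at day 13. Levels that fell below 0 were set to 0, as at day 13, where the vasa share of 2.08% exceeds the 0.812% of this gene. These 0 values are thus not measured absence, and the fits after subtraction rest partly on them. With that subtraction neither fat body step passed in limma, with -1.58 at day 9 against day 5 (adjusted p 0.0604) and -0.96 at day 13 against day 9 (adjusted p 0.308). The difference of the tissues in the last step then no longer passed either (1.31, limma adjusted p 0.346). The subtraction leaves the log2 fold changes of the ovarian steps as they were. Their adjusted p can move, since the groups share an estimate of spread, and is not given here.

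**Figure D1:**
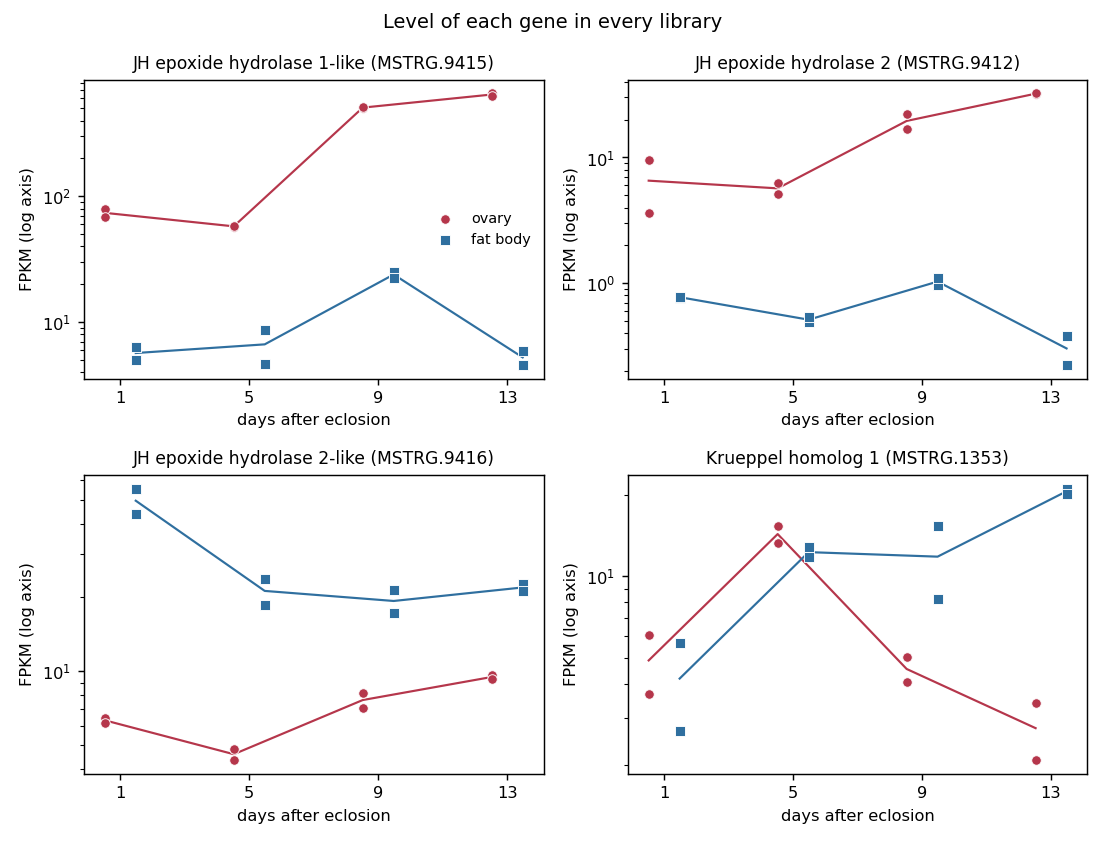
FPKM on a log axis against days after eclosion for each of the 4 genes; red circles are ovary libraries, blue squares fat body libraries, and lines join the means of 2 libraries. Points are shifted sideways, ovary to the left and fat body to the right of each age. Hydrolases 1-like and 2 lie higher in ovary than in fat body at every age, hydrolase 2-like lies lower in ovary, and the Krueppel homolog 1 lines part after day 5.

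**Figure D2:**
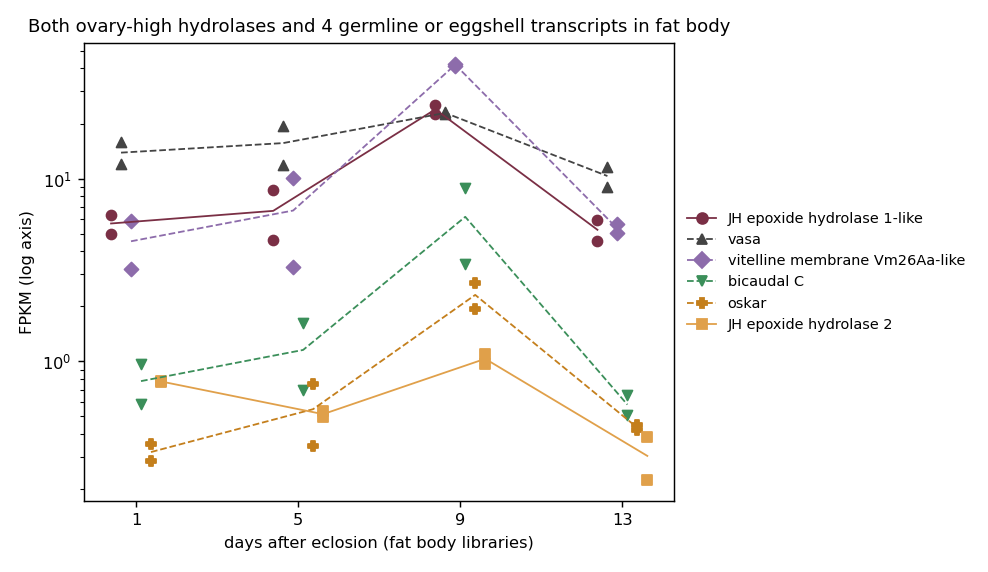
FPKM on a log axis in the fat body libraries for hydrolases 1-like and 2 (solid lines through the means of 2 libraries) and 4 germline or eggshell transcripts (dashed lines), with 1 point per library, shifted sideways around each age. All 6 means are highest at day 9, where hydrolase 1-like stood at 25.2 and 22.6 FPKM and vasa at 22.6 and 23.1 FPKM. Other genes of the germline and eggshell lists did not all follow this course.

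Epoxide hydrolase 2 (MSTRG.9412) followed the same course in the ovary at a lower level. In the ovary it lay at 9.47 and 3.60 FPKM at day 1, 5.13 and 6.23 FPKM at day 5, 16.7 and 22.3 FPKM at day 9, and 31.9 and 32.3 FPKM at day 13. Fat body libraries did not go above 1.10 FPKM, with 0.770 and 0.782 FPKM at day 1, 0.493 and 0.535 FPKM at day 5, 0.967 and 1.10 FPKM at day 9, and 0.383 and 0.224 FPKM at day 13. Every ovary library was above every fat body library, and the ovary groups of days 1 and 5 overlapped. The ovary day 1 libraries stood farther apart, relative to their mean, than those of the other ovary groups.

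MSTRG.9412 rose in the ovary at day 9 against day 5 by 1.61 ± 0.31 (3.05-fold; limma adjusted p 0.00205), while day 5 against day 1 gave -0.06 ± 0.31 (adjusted p 0.926) and day 13 against day 9 gave 0.71 ± 0.31 (adjusted p 0.246). No step passed in the fat body, with 0.42 ± 0.31 at day 9 against day 5 (limma adjusted p 0.477) and -0.64 ± 0.31 at day 13 against day 9 (adjusted p 0.281). With a pseudocount of 0.1 in place of 1, the last of these passed (-1.51; adjusted p 0.0418). The ovary was above the fat body by 1.97 ± 0.31 at day 1, 2.14 ± 0.31 at day 5, 3.32 ± 0.31 at day 9 and 4.67 ± 0.31 at day 13, with limma adjusted p between 0.000242 and 2.16e-07. Its fat body mean was 11.9%, 9.04%, 5.29% and 0.945% of the ovary mean at the 4 ages, so the last of these is below the vasa share of that day. The difference of the tissues missed the threshold at day 9 against day 5 (1.19 ± 0.44; limma adjusted p 0.0711) and at day 13 against day 9 (1.35 ± 0.44; adjusted p 0.111). Leaving out either of the wide-apart ovary day 1 libraries lowered the SE of both differences to 0.23, and they then passed (adjusted p 0.00527 without replicate 1 and 0.0051 without replicate 2 for the earlier step, 0.0154 and 0.015 for the later). The steps of day 13 against day 9 in ovary and in fat body passed in those fits as well, with adjusted p of 0.0454 to 0.0471.

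Epoxide hydrolase 2-like (MSTRG.9416), assembled with 14 transcripts in the table, ran the other way between the tissues. In the ovary it lay at 6.48 and 6.15 FPKM at day 1, 4.34 and 4.84 FPKM at day 5, 7.10 and 8.18 FPKM at day 9, and 9.65 and 9.32 FPKM at day 13. Fat body libraries lay at 43.6 and 55.6 FPKM at day 1, 23.8 and 18.7 FPKM at day 5, 21.5 and 17.2 FPKM at day 9, and 22.6 and 21.3 FPKM at day 13. No ovary library reached the lowest fat body library. Fat body day 1 stood alone at the top, and fat body days 13, 5 and 9 overlapped.

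This gene fell in the fat body at day 5 against day 1 by 1.18 ± 0.16 on the log2 scale (limma adjusted p 0.00136), and later steps there gave -0.13 ± 0.16 (adjusted p 0.735) and 0.18 ± 0.16 (adjusted p 0.635). In the ovary it rose at day 9 against day 5 by 0.63 ± 0.16 (1.54-fold; limma adjusted p 0.0118). Without ovary day 5 replicate 1 that was 0.56 with an adjusted p of 0.0741, and without ovary day 9 replicate 2 it was 0.54 with an adjusted p of 0.0858. Ovary against fat body was -2.78 ± 0.16 at day 1, -1.98 ± 0.16 at day 5, -1.23 ± 0.16 at day 9 and -1.13 ± 0.16 at day 13, with limma adjusted p between 9.9e-05 and 3.47e-07. The difference of the tissues in the step of day 9 against day 5 was 0.75 ± 0.23 (adjusted p 0.0358). That last call ended in 8 of 16 fits that left out a library, with the adjusted p reaching 0.131 without fat body day 5 replicate 1.

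The hydrolases made up different mixtures in the tissues. FPKM is scaled to transcript length, so levels of different genes can be set side by side on this scale. Of the summed FPKM of the 3 hydrolases, MSTRG.9415 made up 83.3% to 95.5% in the 8 ovary libraries and 8.15% to 55.2% in the 8 fat body libraries. MSTRG.9416 made up 1.35% to 7.90% in ovary and 42.1% to 90.6% in fat body. The sum leaves out another product named epoxide hydrolase 2 (MSTRG.9417), so these are shares among the 3 only. In fat body MSTRG.9417 lay at 7.41 and 9.52 FPKM at day 1 and 11.6 and 9.85 FPKM at day 13, above MSTRG.9415 at both ages. At day 9 it lay at 10.4 and 8.51 FPKM, below MSTRG.9415. At day 9 the fat body mixture stood apart from that of its other ages, with 52.9% and 55.2% of MSTRG.9415, and the subtraction above removes most of that gene's level there. The sum of the 3 was 77.8 to 95.8 FPKM in ovary at day 1, 66.4 to 69.6 at day 5, 524 to 546 at day 9 and 673 to 701 at day 13. In fat body it was 50.7 to 61.4 FPKM at day 1, 27.9 to 28.9 at day 5, 40.9 to 47.6 at day 9 and 27.5 to 27.6 at day 13.

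Ratios between hydrolases, taken per library as log2 of FPKM plus 1, were compared over 8 ovary and 8 fat body libraries, with the ages mixed alike on both sides. MSTRG.9415 over MSTRG.9416 averaged 4.64 ± 1.36 in ovary and -1.52 ± 1.29 in fat body (SD), and MSTRG.9412 over MSTRG.9416 averaged 0.77 ± 0.81 in ovary and -4.04 ± 0.60 in fat body. Neither ratio overlapped between the tissues, and both had a two-sided exact permutation p of 0.000155 (0.000233 adjusted over the 3 pairs). This is the smallest value when tissue labels are shuffled over all 16 libraries without regard to age. Libraries of the same age were thus treated as independent, and the ages were not accounted for in this test. MSTRG.9415 over MSTRG.9412 averaged 3.87 ± 0.71 in ovary and 2.51 ± 0.75 in fat body, a difference of 1.36 (exact permutation, adjusted p 0.00389). This last difference rests on the pseudocount, since with 0.1 in place of 1 it was 0.44 with an adjusted p of 0.234 by the same exact test.

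**Figure D3:**
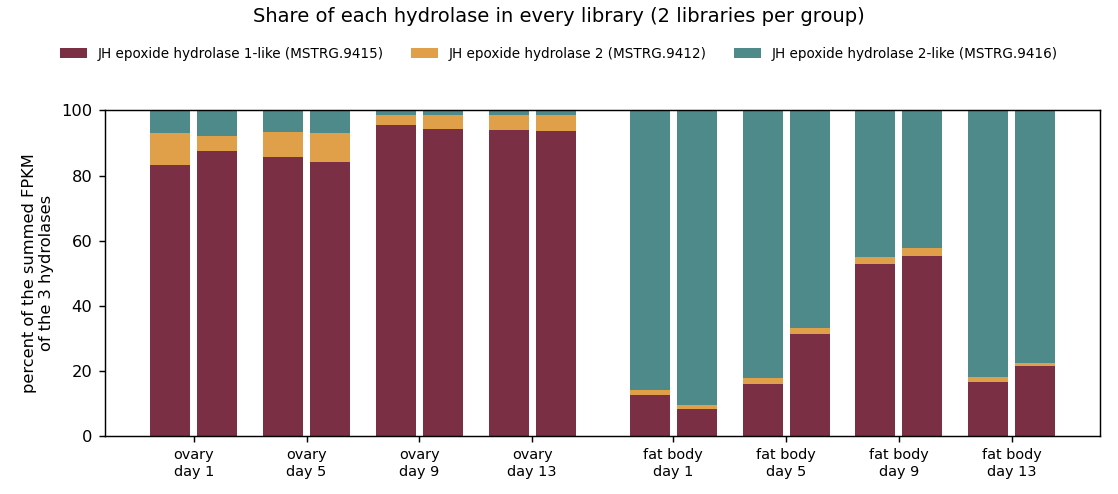
Percent of the summed FPKM of the 3 hydrolases in each of 16 libraries, as stacked bars with 2 libraries per tissue and age. MSTRG.9417, also named epoxide hydrolase 2, is not included. Hydrolase 1-like fills 83.3% to 95.5% of each ovary bar, and hydrolase 2-like fills 42.1% to 90.6% of each fat body bar.

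Krueppel homolog 1 (MSTRG.1353), the hormone-induced transcription factor, rose in both tissues at day 5 against day 1, fell in the ovary at day 9 against day 5 and was lower in ovary than in fat body at days 9 and 13. In the ovary it lay at 6.08 and 3.69 FPKM at day 1, 13.3 and 15.3 FPKM at day 5, 5.02 and 4.06 FPKM at day 9, and 2.09 and 3.40 FPKM at day 13. Fat body libraries lay at 2.69 and 5.69 FPKM at day 1, 11.7 and 12.8 FPKM at day 5, 15.3 and 8.26 FPKM at day 9, and 21.1 and 20.1 FPKM at day 13. The highest ovary level was thus at day 5 and the highest fat body level at day 13. Fat body day 13 headed the order and overlapped no other group, the wide range of fat body day 9 took in both ovary day 5 and fat body day 5, and ovary days 1 and 9 and fat body day 1 overlapped at the low end, with ovary day 13 overlapping fat body day 1 there.

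In limma, MSTRG.1353 rose at day 5 against day 1 by 1.41 ± 0.34 in ovary (2.65-fold; adjusted p 0.0146) and by 1.42 ± 0.34 in fat body (2.67-fold; adjusted p 0.0201). The difference of these steps was -0.01 ± 0.48 (limma adjusted p 0.994). With an SE of that size, differences larger than 0.48 in either direction are not excluded. The ovarian call ended without ovary day 1 replicate 2 (1.11; adjusted p 0.0892) and without ovary day 5 replicate 2 (1.31; adjusted p 0.0871). That of the fat body ended without fat body day 1 replicate 1 (0.99; adjusted p 0.14), day 5 replicate 1 (1.47; adjusted p 0.0802) or day 5 replicate 2 (1.36; adjusted p 0.103). At day 9 against day 5 it fell in the ovary by 1.47 ± 0.34 (limma adjusted p 0.00617), against -0.11 ± 0.34 in fat body (adjusted p 0.923). The fat body value there has a spread of 8.26 to 15.3 FPKM behind it, and without fat body day 9 replicate 2 it was 0.30. The difference of the tissues in that step missed the threshold (-1.36 ± 0.48; adjusted p 0.0615), as did that of day 13 against day 9 (-1.39 ± 0.48; adjusted p 0.132).

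At day 13 against day 9 neither tissue passed, with -0.58 ± 0.34 in ovary (limma adjusted p 0.406) and 0.81 ± 0.34 in fat body (adjusted p 0.208). Ovary against fat body gave 0.21 ± 0.34 at day 1 (adjusted p 0.608) and 0.20 ± 0.34 at day 5 (adjusted p 0.621), both of which turned negative under median-of-ratios scaling (-0.42 and -0.64) and quantile normalization (-0.57 and -0.51) without passing. It was lower in the ovary at day 9 (-1.16 ± 0.34; limma adjusted p 0.0109) and at day 13 (-2.55 ± 0.34; adjusted p 5.26e-05). The day 9 call ended without ovary day 9 replicate 2 (-1.03; adjusted p 0.0631) and without fat body day 9 replicate 1 (-0.75; adjusted p 0.105).

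The sum of muscle markers was highest in ovary at day 5, as this gene was. The 23 summed to 2977 to 4246 FPKM in ovary at day 1, 5730 to 6062 at day 5, 617 to 1169 at day 9 and 459 to 522 at day 13. In fat body they summed to 6201 to 6403 FPKM at day 1, 16623 to 17046 at day 5, 13188 to 15578 at day 9 and 6302 to 7209 at day 13. Counted gene by gene, in ovary at day 5 against day 1, 6 of 21 tested rose and 3 fell, with a median of -0.03, and at day 9 against day 5, 2 rose and 11 fell, with a median of -1.45. At fat body day 13, where the Krueppel homolog 1 level was highest, the muscle sum was below that of days 5 and 9. Hemocyte markers, 8 genes, summed to 125 to 148 FPKM in ovary at day 1, 114 to 120.4 at day 5, 52.2 to 55.1 at day 9 and 54.7 to 55.7 at day 13. In fat body they summed to 162 to 169, 122 to 123, 172 to 186 and 198 to 217 FPKM at the same ages. The part of muscle or blood cells in the Krueppel homolog 1 levels was not tested.

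Several marker lists went up in the ovary libraries alongside the hydrolases. The eggshell list of 7 genes summed to 7.17 to 11.5 FPKM in ovary at day 1 and 15.5 to 17.1 at day 5. It then reached 6362 to 11146 FPKM at day 9 and 3032 to 3518 at day 13. All 6 of its tested genes rose in ovary at day 9 against day 5, where 13.9% of all genes rose, with a median of 8.87. At day 13 against day 9, 2 of them fell. The germline list stood at 521 to 629 FPKM at day 1, 810 to 870 at day 5, 1232 to 1238 at day 9 and 1389 to 1414 at day 13, so it was already higher at day 5 than at day 1, where the hydrolase sum was not. The fat body list of 21 genes, which holds the vitellogenins, summed to 1402 to 2151 FPKM in ovary at day 1, 3405 to 3737 at day 5, 16937 to 19779.9 at day 9 and 8268 to 10694 at day 13. In that list 5 of 20 tested genes rose and 6 fell in ovary at day 9 against day 5 with a median of -0.23. The gut list of 46 genes also went up there, to 3537 to 3706 FPKM at day 9 and 4936 to 5181 FPKM at day 13. Nearly all of that was maltase 2-like (MSTRG.8324), and the other 45 genes summed to 108 to 585 FPKM at day 5, 258 to 292 FPKM at day 9 and 101 to 111 FPKM at day 13. The part of cell composition in the hydrolase levels was not tested.

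The members were chosen with earlier results of these data known, so counts of them are descriptions and no test. Counted over the 4 members, 1 changed in the ovary at day 5 against day 1, where 23.8% of all genes tested did. All 4 changed at day 9 against day 5, against 38.0% of all genes, and 0 at day 13 against day 9, against 4.22%; in that last step 1 member had an unadjusted p under 0.05 in limma, MSTRG.9412. In fat body 2, 1 and 1 members changed in the successive steps, against 14.5%, 11.1% and 7.16% of all genes. Between the tissues 3 members differed at day 1 and at day 5 and 4 at day 9 and at day 13. Since 63.0%, 65.2%, 68.1% and 67.8% of all genes differed there, these counts are near the background and say little about the members as a group. The difference of the steps between tissues passed for 0 members at day 5 against day 1, for 2 at day 9 against day 5 and for 1 at day 13 against day 9, against 7.96%, 26.3% and 5.5% of all genes. For the count of 0, 1 member had an unadjusted p under 0.05 in limma (MSTRG.9416).

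**Figure D4:**
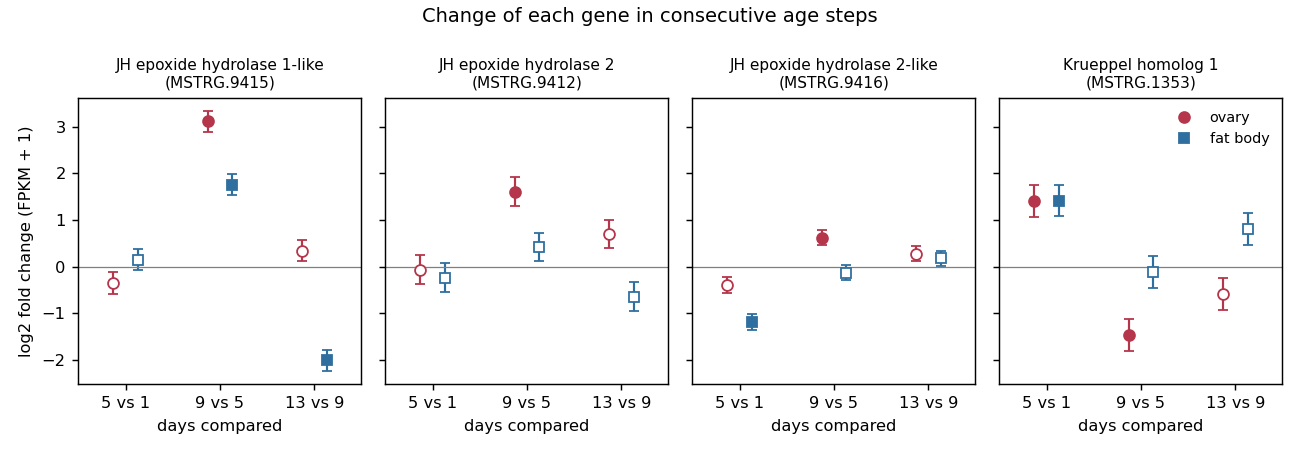
Log2 fold change of FPKM plus 1 for each gene in the 3 consecutive age steps, with the later age against the earlier; bars are 1 SE, circles are ovary, squares are fat body, and filled symbols have an adjusted p under 0.05 in limma. In ovary at 9 against 5 days the 3 hydrolases lie above 0 and Krueppel homolog 1 lies below, all filled.

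Over the whole span, day 13 against day 1, a contrast added after the data were seen, the tissues differed for all 4 genes, against 48.0% of all genes tested. In the ovary MSTRG.9415 rose by 3.11 ± 0.23, MSTRG.9412 by 2.25 ± 0.31 and MSTRG.9416 by 0.52 ± 0.16 (limma adjusted p 1.24e-06, 0.000117 and 0.0198), and Krueppel homolog 1 gave -0.64 ± 0.34 (adjusted p 0.132), or 0.21 under quantile normalization without passing. The call of MSTRG.9416 ended when any 1 of its 4 libraries was left out, with values of 0.49 to 0.55. So 3 of 4 members changed, against 55.8% of all genes. In the fat body Krueppel homolog 1 rose by 2.12 ± 0.34 (4.34-fold; limma adjusted p 0.000995) and MSTRG.9416 fell by 1.13 ± 0.16 (adjusted p 0.000528), against 29.7% of all genes changed. MSTRG.9415 and MSTRG.9412 gave -0.10 ± 0.23 and -0.45 ± 0.31 (adjusted p 0.825 and 0.327). With the ovarian share subtracted and levels below 0 set to 0, MSTRG.9415 gave -2.02 (limma adjusted p 0.00956). Under median-of-ratios scaling it gave 0.30, while with a pseudocount of 0.1 MSTRG.9412 gave -1.15 (limma adjusted p 0.0492). The ovarian change minus that of the fat body was 3.21 ± 0.32 for MSTRG.9415, 2.70 ± 0.44 for MSTRG.9412, 1.65 ± 0.23 for MSTRG.9416 and -2.76 ± 0.48 for Krueppel homolog 1, with limma adjusted p between 2.55e-05 and 0.000897.

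Scaling shifts every comparison of the tissues. The median of all genes in ovary against fat body was 0.63 at day 1, 0.64 at day 5, 0.43 at day 9 and 0.51 at day 13 as deposited, between -0.04 and 0.02 under median-of-ratios scaling and between 0.13 and 0.20 under quantile normalization. The directions of the 3 hydrolases at all 4 ages, and of Krueppel homolog 1 at days 9 and 13, were the same under both. Within a tissue the median shift went up to -0.24, at day 13 against day 1 in either tissue.

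Within the ovary, over 8 libraries that share 4 ages, MSTRG.9415 correlated with MSTRG.9412 at r = 0.947 and with MSTRG.9416 at r = 0.900 on the log2 scale, and Krueppel homolog 1 correlated with them at r = -0.735, -0.647 and -0.907 in the order 1-like, 2 and 2-like. Within the fat body the 1-like enzyme correlated with hydrolase 2 at r = 0.719 and with 2-like at r = -0.471, and Krueppel homolog 1 with MSTRG.9415 at r = 0.041, with MSTRG.9412 at r = -0.553 and with MSTRG.9416 at r = -0.707. These are descriptions of groups that differ in age, so the points are not independent. The 2 enzymes high in the ovary went with each other in both tissues, and the 2-like enzyme went with both of them in the ovary. In fat body hydrolase 2 did not go above 1.10 FPKM, near the pseudocount of 1. The part of ovarian transcripts in the fat body correlation was not tested. Hydrolase 2 correlated with 2-like at r = 0.892 in ovary and r = 0.148 in fat body. Spearman's rho had the sign of r in 10 of the 12 pairs and not for Krueppel homolog 1 with MSTRG.9415 (-0.190) or for MSTRG.9412 with MSTRG.9416 (-0.0952), both in fat body.

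Among 4812 named genes whose mean reached 10 FPKM in some group, likeness was measured as Pearson's r over the 8 group means of log2 of FPKM plus 1. Closest to MSTRG.9415 were fushi tarazu (MSTRG.5876, r = 0.994), a segmentation gene in Drosophila, plutonium (MSTRG.4116, r = 0.992), a regulator of the first embryonic cell cycles in Drosophila, and charlatan (MSTRG.6052, r = 0.992). Fushi tarazu averaged 7.59, 5.73, 62.3 and 65.4 FPKM in ovary at the 4 ages and 0.202, 0.302, 1.55 and 0.200 FPKM in fat body, with its fat body maximum at day 9 as well. Closest to MSTRG.9412 were the kinesin subito (MSTRG.8126, r = 0.998), which acts in meiotic spindles in Drosophila, the histone methyltransferase Mes-4 (MSTRG.3280, r = 0.997) and serendipity alpha (MSTRG.3159, r = 0.997), needed when the Drosophila embryo forms its first cells. For MSTRG.9416 they were pentatricopeptide repeat-containing protein 1 (MSTRG.1346, r = 0.982), ribonuclease UK114 (MSTRG.9603, r = 0.978) and cytochrome b5 (MSTRG.5909, r = 0.974). For Krueppel homolog 1 they were a sodium/potassium ATPase beta subunit (MSTRG.2745, r = 0.956), doublesex (MSTRG.6313, r = 0.939), the sex determination factor, and phosphoribosylformylglycinamidine synthase (MSTRG.593, r = 0.934), an enzyme of purine synthesis. Doublesex averaged 3.55, 6.31, 2.91 and 1.68 FPKM in ovary and 3.96, 11.0, 9.34 and 15.0 FPKM in fat body at the 4 ages, the same order of ages in each tissue as Krueppel homolog 1.

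Other genes of the hormone's pathway were taken by product name, 40 in 5 lists with the members included, and are given by role. The product left out of the hydrolase sums (MSTRG.9417) is also named epoxide hydrolase 2. It lay at 4.37 and 3.77 FPKM in ovary at day 1 and 14.0 and 9.02 FPKM at day 13, and at 7.41 and 9.52 FPKM and 11.6 and 9.85 FPKM in fat body at those ages. It rose over the whole span in the ovary (1.27 ± 0.35; limma adjusted p 0.0106), was lower in ovary than in fat body at day 1 (-0.89 ± 0.35; adjusted p 0.0475), and passed in no consecutive step. The first call ended without ovary day 1 replicate 2 (1.19; adjusted p 0.054) and without ovary day 13 replicate 1 (0.99; adjusted p 0.0855). The call at day 1 ended in 10 of 16 fits that left out a library, those without any 1 of its own 4 libraries among them. Of the 4 genes of the degradation list, 3 rose in the ovary at day 9 against day 5, where 13.9% of all genes did. These are the 3 members, which were chosen with earlier results of these data known. The median of the list was 1.24, against -0.15 for all genes. Count and median describe the list and are no test of it.

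The carriers are proteins of the takeout family, which in some insects bind juvenile hormone or related lipids. There were 12, and 10 of them were tested. Of these, 6 fell in the ovary at day 5 against day 1, where 16.3% of all genes fell. At day 9 against day 5 it was 3, near the share of all genes at 24.1%, and at day 13 against day 9 it was 0, where 2.59% did. Fat body falls numbered 3, 3 and 2 in the successive steps, where 10.7%, 5.6% and 5.42% of all genes fell. None rose in any of the 6 steps, where 1.63% to 13.9% of all genes rose. Takeout (MSTRG.10265) lay at 491 and 373 FPKM in ovary at day 1, 99.2 and 77.3 FPKM at day 5, 10.8 and 9.03 FPKM at day 9, and 7.12 and 6.74 FPKM at day 13. It fell by 2.28 ± 0.25 at day 5 against day 1 and by 3.03 ± 0.25 at day 9 against day 5 (limma adjusted p 0.000259 and 9.91e-06). On the log2 scale its largest ovarian fall thus came in the step in which the hydrolases rose. In FPKM the largest fall came earlier, at day 5 against day 1. These falls were not tested against each other. A further takeout (MSTRG.9188) fell in those steps by 2.55 ± 0.16 and 2.97 ± 0.16 (adjusted p 1.14e-05 and 9.06e-07), with 147 and 165 FPKM in ovary at day 1 and 2.36 and 2.35 FPKM at day 13. In fat body MSTRG.10265 stayed between 22.2 and 61.1 FPKM and MSTRG.9188 between 7.64 and 30.3 FPKM.

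Some takeout products were almost only detected in fat body. MSTRG.2372 reached 0.717 FPKM at most in the ovary and 48.4 FPKM in the fat body, and MSTRG.117 stood at 0.706 FPKM or less in ovary against up to 31.8 FPKM in fat body. MSTRG.6236 lay at 18.0 and 21.0 FPKM in fat body at day 1 and 0.692 and 0.613 FPKM at day 13 (-3.63 ± 0.30 over the span; limma adjusted p 1.42e-05). MSTRG.2374 was detected in both tissues at day 1, at 11.4 and 8.59 FPKM in ovary and 20.4 and 9.24 FPKM in fat body, and fell over the span in ovary (-3.27 ± 0.31; limma adjusted p 9.19e-06) and in fat body (-3.65 ± 0.31; adjusted p 1.75e-05). Among the low ones with calls, 117921, MSTRG.6241 and MSTRG.6242, the highest library value was 6.61 FPKM.

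Genes of the mevalonate route, which supplies the precursors of juvenile hormone and of other isoprenoids, numbered 8, with 7 tested. In consecutive steps 1 rose in the ovary, near the share of 13.9% of all genes, and 1 fell in the fat body, where 5.42% of all genes did. The riser was isopentenyl-diphosphate isomerase 1 (MSTRG.3528) at day 9 against day 5 (0.70 ± 0.18; limma adjusted p 0.0119; 0.084 without ovary day 5 replicate 1 and 0.0591 without ovary day 9 replicate 2). The other was acetyl-CoA acetyltransferase (MSTRG.11035, in a locus fused with another product) at day 13 against day 9 (-0.70 ± 0.18; adjusted p 0.04, with the call ended by leaving out any 1 of its 4 libraries). HMG-CoA reductase (MSTRG.6411), the rate-limiting enzyme of the route, lay between 11.2 and 22.5 FPKM in ovary and between 2.85 and 8.79 FPKM in fat body, and was higher in ovary at all 4 ages (1.08 to 2.38; limma adjusted p at most 0.00737). Under median-of-ratios scaling its calls at days 5 and 9 ended, with 0.28 (adjusted p 0.422) and 0.60 (adjusted p 0.078). Mitochondrial acetyl-CoA acetyltransferase (MSTRG.5299) was higher in ovary at all 4 ages as well (1.07 to 1.67; limma adjusted p at most 0.00386), with calls ended by that scaling at day 1 (0.36; adjusted p 0.246) and day 5 (0.44; adjusted p 0.167). Mevalonate kinase (MSTRG.2115) was higher in ovary at day 9 (2.33 ± 0.41) and day 13 (2.18 ± 0.41; adjusted p 0.000422 and 0.000645). MSTRG.11035 went the other way, at 11.7 and 17.0 FPKM in ovary and 40.6 and 38.7 FPKM in fat body at day 1. It was lower in ovary at day 1 (-1.43 ± 0.18), day 5 (-1.25 ± 0.18) and day 9 (-0.84 ± 0.18; limma adjusted p at most 0.00144). HMG-CoA lyase (MSTRG.2458), which is on the list by name but makes ketone bodies, had its maximum of 8.74 FPKM in an ovary library and, in fat body, of 3.92 FPKM, and was higher in ovary at days 5, 9 and 13 (0.51 to 0.96; adjusted p at most 0.0384), while MSTRG.2116, another fused locus, passed in no comparison. These tissues are not the gland that makes the hormone.

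Of receptors and partners 9 were found and 7 tested, none of them named Methoprene-tolerant. Nuclear receptor coactivator 2 (MSTRG.10756), the family of Taiman, was higher in ovary at all 4 ages (0.90 to 1.53; limma adjusted p at most 0.00888), at 8.12 to 11.2 FPKM in ovary and 2.36 to 5.69 FPKM in fat body. Its call at day 1 ended without fat body day 1 replicate 1 (0.65; adjusted p 0.0544), and that at day 5 without ovary day 5 replicate 2 (0.73; adjusted p 0.07). Under median-of-ratios scaling the calls at days 1, 5 and 13 ended (0.29, 0.11 and 0.48; adjusted p 0.314, 0.708 and 0.0878). Coactivator 7-like (MSTRG.6261), which is on the list by name only, was higher in ovary too (1.10 to 1.57; limma adjusted p at most 0.00347), but under that scaling not at day 1 (0.32; adjusted p 0.263) or day 5 (0.58; adjusted p 0.054). FTZ-F1-like (MSTRG.1549), a nuclear receptor, lay at 3.85 and 3.70 FPKM in ovary at day 5 and at 0.452 and 0.428 FPKM at day 13, and at 6.09 and 6.13 FPKM and 4.77 and 3.18 FPKM in fat body at those ages. Like Krueppel homolog 1 it had a rise at day 5 against day 1 in ovary (0.81 ± 0.21; adjusted p 0.0212) and fat body (1.48 ± 0.21; adjusted p 0.00163) and a fall at day 9 against day 5 in ovary (-1.41 ± 0.21; adjusted p 0.000453). In fat body at day 13 against day 9 it gave -0.48 ± 0.21 (adjusted p 0.236), where Krueppel homolog 1 gave 0.81. The remaining called genes of the list, MSTRG.3763, MSTRG.3764, MSTRG.4468 and MSTRG.6264, did not exceed 3.29 FPKM.

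The response list held 7 genes, 6 of them tested, with Krueppel homolog 1 among them. Broad-complex (MSTRG.3225), a transcription factor that acts downstream of Krueppel homolog 1 in insect metamorphosis, lay at 9.34 and 8.68 FPKM in ovary at day 1 and 15.8 and 19.6 FPKM at day 13, and at 4.86 and 7.23 FPKM and 3.03 and 2.33 FPKM in fat body at those ages. It rose over the span in ovary (0.90 ± 0.19; limma adjusted p 0.00218) and fell in fat body by 0.92 ± 0.19 on the log2 scale (adjusted p 0.00423), where Krueppel homolog 1 gave -0.64 and 2.12. The direction of its tissue difference at day 1 turns with scaling. Other broad-complex products (106327, 106338 and 106366) were called in some comparisons and did not exceed 5.70 FPKM. MSTRG.5624 is also described as Krueppel homolog 1, but its other annotation in the table is that of a guanine deaminase. It lay between 3.91 and 6.59 FPKM in ovary and between 1.18 and 2.51 FPKM in fat body and changed little with age, by -0.47 ± 0.15 in ovary at day 5 against day 1 (adjusted p 0.0477).

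**Figure D5:**
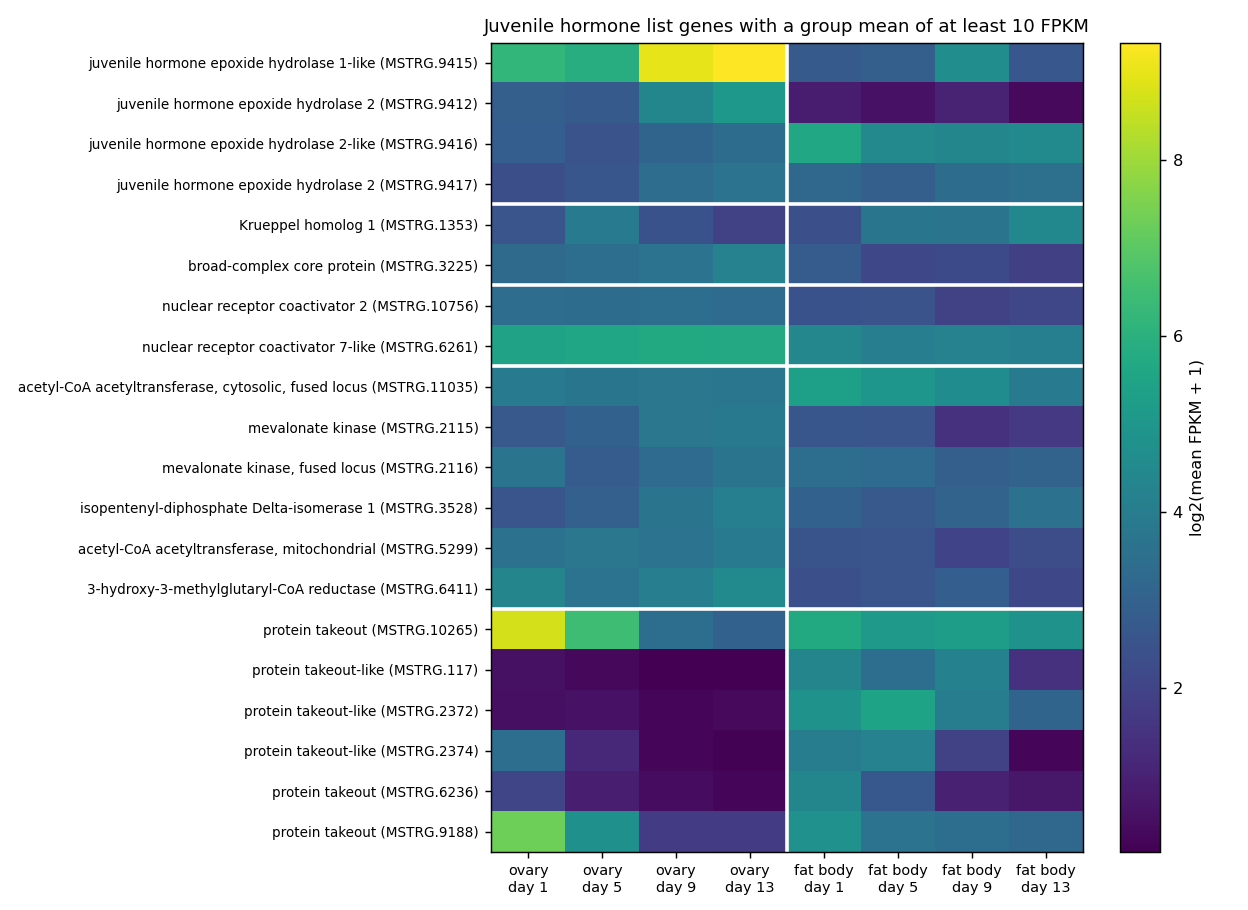
Heat map of log2 of mean FPKM plus 1 in each tissue and age for the 20 genes of the juvenile hormone lists with a group mean of at least 10 FPKM, with white lines between the lists (degradation, response, receptor and partners, synthesis, carriers, from top to bottom). Hydrolase 1-like brightens from ovary day 5 to day 9, while the takeouts MSTRG.10265 and MSTRG.9188 darken across ovary ages.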

How the data were processed

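Total RNA of ovary and fat body was sequenced in 16 libraries, 2 for each of 4 ages. The authors deposited FPKM per gene, and per the submitters' processing notes HISAT2 2.0, StringTie 1.3.0 and Bowtie 0.12.2 were used, with no roles given. The notes name a mouse genome build, mm8, so no positions are given. How any fragments shared between hydrolases were assigned is not stated, so levels of single hydrolases are uncertain to that extent. Genes are named by the product descriptions.

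Values were used as deposited. Log2 of FPKM plus 1 was fitted with limma 3.58.1 (R 4.3.3; trend and robust moderation, 1 coefficient per group, 16 libraries) for 10213 genes; the groups share 1 estimate of spread. Ratios were compared by exact permutation with scipy 1.17.1. With pandas 2.3.3, lists were built from product names. Members and lists were chosen with earlier results of these data known. Named are the members, list genes that were called or reached a mean of 10 FPKM, and the 3 genes most like each member. Both procedures were checked on simulated data. Over 28 pairs of groups, same-numbered replicates correlated at r of -0.149 to 0.146, so numbers were not taken as pairs.

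The alternatives tried were no filter, a filter at 5 FPKM, a pseudocount of 0.1, median-of-ratios scaling, quantile normalization, fits to only the groups compared, moderation without trend and robust, a replicate block, and each library left out. The day 13 against day 1 contrasts and the subtraction of an ovarian share were added after the data were seen. Sequences of the members were not used here.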

Additional observations from a re-analysis of the deposited data

Results flagged for a closer look

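Of the differences between ovary and fat body in how the members changed with age, 7 passed in limma, 3 in consecutive steps and 4 over the whole span. Of all genes tested, 26.3% passed at day 9 against day 5, 5.5% at day 13 against day 9 and 48.0% over the span.

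Epoxide hydrolase 1-like (MSTRG.9415) stepped up more in ovary than in fat body at day 9 against day 5, by 1.36 ± 0.32 (adjusted p 0.0106), and again at day 13 against day 9, by 2.35 ± 0.32 (adjusted p 0.00552). In that later step ovary gave 0.35, which did not pass, and fat body -2.003. With an ovarian share scaled by vasa subtracted from the fat body libraries, and levels below 0 set to 0, the difference was 1.31 (adjusted p 0.346). Epoxide hydrolase 2-like (MSTRG.9416) differed by 0.75 ± 0.23 at day 9 against day 5 (adjusted p 0.0358), with 0.63 in ovary and -0.13 in fat body.

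Over day 13 against day 1 the ovarian change minus that of the fat body was 3.21 for MSTRG.9415, 2.70 for MSTRG.9412, 1.65 for MSTRG.9416 and -2.76 for Krueppel homolog 1 (MSTRG.1353). The signs were opposite in the tissues for every member. MSTRG.9415 gave 3.11 in ovary and -0.10 in fat body, and MSTRG.9412 gave 2.25 and -0.45. Neither of these fat body values passed, and that of MSTRG.9415 turned positive under median-of-ratios scaling and quantile normalization. MSTRG.9416 gave 0.52 in ovary and -1.13 in fat body. Krueppel homolog 1 gave -0.64 in ovary, which did not pass and was 0.21 under quantile normalization, and 2.12 in fat body. No group has enough libraries for a test of single libraries that stand apart.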

How the results depend on the processing

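Of 560 results on the members under alternatives other than leaving out a library, 528 kept their direction and their side of the threshold, 10 lost a call, 7 gained one and 15 changed direction. Where no cause is given below, the cause was not tested.

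Fits to only the groups compared leave fewer libraries to estimate the spread. They left log2 fold changes as they were but ended the calls of Krueppel homolog 1 in ovary at day 5 against day 1 (1.41; adjusted p 0.0739), of MSTRG.9416 (-1.18; 0.0815) and Krueppel homolog 1 (1.42; 0.118) in fat body at day 5 against day 1, of MSTRG.9415 in fat body at day 9 against day 5 (1.75; 0.0623) and at day 13 against day 9 (-2.003; 0.0905), of MSTRG.9416 in ovary over the whole span (0.52; 0.0553) and of the tissue difference of MSTRG.9416 at day 9 against day 5 (0.75; 0.0711). In that step the tissue differences of MSTRG.9412 (1.19; 0.0219) and Krueppel homolog 1 (-1.36; 0.046) then passed. Counts of all genes called were 359 in place of 2426 in ovary at day 5 against day 1, 4 in place of 431 at day 13 against day 9, and in fat body 137 in place of 1484, 566 in place of 1137 and 1 in place of 731 in the successive steps and 1330 in place of 3038 over the span. For the tissue differences of steps they were 151 in place of 813 at day 5 against day 1 and 311 in place of 562 at day 13 against day 9. Other counts that moved by more than 1.5 times were 261 under quantile normalization in ovary at day 13 against day 9 and 291 with a pseudocount of 0.1 for the tissue difference at day 5 against day 1.

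Median-of-ratios scaling turned the direction of MSTRG.9412 in ovary at day 5 against day 1 (0.0135), Krueppel homolog 1 in fat body at day 9 against day 5 (0.00417), Krueppel homolog 1 between tissues at day 1 (-0.42) and day 5 (-0.64), the tissue difference of MSTRG.9416 at day 13 against day 9 (-0.0750), MSTRG.9415 in fat body over the span (0.30), broad-complex MSTRG.3225 between tissues at day 1 (-0.17) and isopentenyl-diphosphate isomerase MSTRG.3528 at day 9 (-0.0618) and day 13 (-0.38). Quantile normalization gave 0.10 for MSTRG.9412 in ovary at day 5 against day 1, -0.57 and -0.51 for Krueppel homolog 1 between tissues at days 1 and 5, 0.0618 for its tissue difference at day 5 against day 1, 0.21 for it in ovary over the span, -0.11 for the tissue difference of MSTRG.9416 at day 13 against day 9, 0.29 for MSTRG.9415 in fat body over the span, -0.23 for MSTRG.3225 at day 1, and -0.17 and -0.50 for MSTRG.3528 at days 9 and 13. None of these was called, except MSTRG.3528 at day 13 under quantile normalization (adjusted p 0.0473).

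A pseudocount of 0.1 brought MSTRG.9412, which is low in fat body, past the threshold there at day 13 against day 9 (-1.51; adjusted p 0.0418) and over the span (-1.15; 0.0492), and in the tissue difference at day 13 against day 9 (2.25; 0.0466), and reduced the ratio of MSTRG.9415 over MSTRG.9412 between tissues to 0.44. The subtraction of an ovarian share gave -1.58, -0.96 and -2.02 for MSTRG.9415 in fat body at day 9 against day 5, day 13 against day 9 and over the span (the last called, adjusted p 0.00956), -0.23 for MSTRG.9412 at day 9 against day 5, 1.84 for its tissue difference in that step (0.00995) and 1.31 for that of MSTRG.9415 at day 13 against day 9. Subtracted levels below 0 were set to 0, and the values of MSTRG.9415 rest partly on that floor. Replicate numbers mark no pairs, and the replicate block moved 1 member call, the tissue difference of MSTRG.9416 at day 9 against day 5 (0.75; adjusted p 0.0504).

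Leaving out each library in turn left 975 of 1024 results on the members as they were, with a group of 1 library taken to vary like the others; every call of MSTRG.9415 held in all 16 fits. In ovary, Krueppel homolog 1 ran from 1.11 to 1.70 and MSTRG.9412 from -0.65 to 0.53 at day 5 against day 1, MSTRG.9416 from 0.54 to 0.72 at day 9 against day 5, MSTRG.9412 from 0.51 to 0.90 at day 13 against day 9 and MSTRG.9416 from 0.49 to 0.55 over the span. In fat body at day 5 against day 1, Krueppel homolog 1 ran from 0.99 to 1.85 and MSTRG.9415 from -0.25 to 0.55. At day 9 against day 5 there, Krueppel homolog 1 ran from -0.52 to 0.30 and MSTRG.9416 from -0.29 to 0.0388, while MSTRG.9412 ran from -0.73 to -0.55 at day 13 against day 9 and MSTRG.9415 from -0.26 to 0.0605 over the span. Krueppel homolog 1 between tissues ran from -0.21 to 0.64 at day 1 and from -1.57 to -0.75 at day 9. Tissue differences of steps ran, at day 5 against day 1, from -0.44 to 0.42 for Krueppel homolog 1, -0.42 to 0.76 for MSTRG.9412 and 0.62 to 0.97 for MSTRG.9416. At day 9 against day 5 they ran from -1.77 to -0.95 for Krueppel homolog 1, 0.99 to 1.38 for MSTRG.9412 and 0.59 to 0.92 for MSTRG.9416, and at day 13 against day 9 from 1.15 to 1.54 for MSTRG.9412 and -0.0500 to 0.25 for MSTRG.9416. Counts of all genes called ran from 1193 to 2547 in ovary at day 5 against day 1 and 156 to 459 at day 13 against day 9. In fat body they ran from 617 to 1634, 568 to 1260 and 400.0 to 819 in the successive steps, and for the tissue differences from 371 to 1052 at day 5 against day 1 and 240.0 to 592 at day 13 against day 9. The depth behind each value is not stated, so counting error cannot be given.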

Other observations

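Genes tied to juvenile hormone by the table's GO terms and not by their product names were looked up after the values of the members had been seen. MSTRG.7903, uncharacterized by name and annotated to its synthesis by GO term, lay at 0.0183 and 0.181 FPKM in ovary at day 5, 4.94 and 1.68 FPKM at day 9 and 1.16 in both libraries at day 13. In fat body it lay at 0.279 and 0.398 FPKM at day 5, 6.25 and 5.85 FPKM at day 9 and 0.305 and 2.05 FPKM at day 13. It rose at day 9 against day 5 in ovary (1.86 ± 0.41; limma adjusted p 0.00445) and in fat body (2.40 ± 0.41; adjusted p 0.0037), and fell in fat body at day 13 against day 9 by 1.82 ± 0.41 (adjusted p 0.0236), steps in which epoxide hydrolase 1-like changed in the same directions.

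MSTRG.7554, annotated to juvenile hormone receptor activity, lay between 8.26 and 16.9 FPKM in ovary and between 3.94 and 9.75 FPKM in fat body and was higher in ovary at day 9 (1.10 ± 0.23; limma adjusted p 0.0013) and day 13 (1.47 ± 0.23; adjusted p 0.000158). Among 3 genes annotated to juvenile hormone esterase activity, the other route of breakdown, MSTRG.8951 rose in fat body at day 13 against day 1 (2.69 ± 0.75; adjusted p 0.0211), with 6.40 and 5.06 FPKM at day 13 and 0.0442 and 0.0261 FPKM at day 1. Its ovary libraries of day 5 stood at 7.23 and 0.717 FPKM.

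The identifiers between the hydrolases were also looked up. MSTRG.9413, uncharacterized, lay at 4.59 and 3.21 FPKM in ovary at day 1 and 30.7 and 25.4 FPKM at day 13, and in fat body at 18.4 and 9.89 FPKM at day 1 and 4.77 and 3.10 FPKM at day 13. MSTRG.9414, without a description, lay at 17.0 and 12.9 FPKM in ovary at day 1 and 468 and 343 FPKM in fat body at day 1, and at 103 and 107 FPKM in fat body at day 13.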
